A study of Arabidopsis thaliana with 6 samples.

Results

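The RBOH genes (RESPIRATORY BURST OXIDASE HOMOLOG) encode the NADPH oxidases of plants, and Arabidopsis thaliana has one locus for each letter from RBOHA to RBOHJ. All 10 loci were found by their AGI codes (the locus identifiers of the Arabidopsis genome) among the 33602 gene models counted in each library. The family was picked with its difference between Dex and no_Dex already known, so the fold changes below describe these libraries and no test of the family is drawn from them. Of the 10 genes, 8 had enough read pairs to be tested, and RBOHH and RBOHJ did not.

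An RBOH protein sits in the plasma membrane and moves electrons from NADPH in the cytosol, through FAD and haem groups, to oxygen outside the cell. The superoxide formed there is turned into hydrogen peroxide, which acts as a signal and is used by peroxidases to cross-link cell walls. The N-terminal part binds calcium through EF-hands and is phosphorylated by protein kinases, and small ROP GTPases also act on it. Members are known for the oxidative burst of immunity, the closing of stomata, the growth of root hairs and pollen tubes, and the lignin of the Casparian strip.

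Whole seedlings at Boyes stage 1.02, all carrying 35S::CUC2-GR, were compared in 2 groups of 3 libraries. This transgene makes the boundary transcription factor CUC2, fused to the glucocorticoid receptor domain, under a promoter active in most tissues. The Dex seedlings spent 6 h in 10 mL of liquid medium to which 10 µL of dexamethasone was added, whereas no_Dex seedlings were left untreated. Nothing in the labels gives the strength of the dexamethasone stock, the number of transgenic lines or a mock treatment. The labels give the liquid medium and the 6 h for Dex seedlings only. Effects of dexamethasone itself, of CUC2-GR and of the time in liquid medium with its handling therefore cannot be told apart. The labels call the libraries biological replicates without saying whether they were grown separately, so the p-values measure only the spread between these samples.

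Each library held between 26161582 and 29481253 counted pairs. Dex replicate 1 stood apart, with correlations of log2 CPM (counts scaled to the library's total of pairs) across genes of 0.99 and 0.989 with the other Dex libraries, against 0.996 between those. CUC2, whose count sums the transgene and the endogenous gene, had a log2 fold change of 0.02 (SE 0.06; adjusted p = 0.876), so its transcript does not check the treatment labels. Markers of photosynthetic cells summed to between 14430 and 16066 CPM in no_Dex and between 8599 and 13002 CPM in Dex, so green tissue was present in all 6 libraries.

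The promoters of 3 of the 4 genes that were called lower in every fit are shown here. Whether these genes share a regulator was not tested. Each is the stretch of 250 bases before the gene's annotated start, from RefSeq's TAIR10.1 assembly and annotation, written in the direction of transcription. The RBOHC window lies at chr5:20762462-20762711 on the minus strand, that of RBOHF at chr1:23769524-23769773 on the plus strand and that of RBOHG at chr4:12883806-12884055 on the minus strand. Capitals mark CACG, the core that NAC proteins bind, and TTGAC, the core of the W-box that WRKY proteins bind, on either strand (CGTG and GTCAA on the other).
RBOHC: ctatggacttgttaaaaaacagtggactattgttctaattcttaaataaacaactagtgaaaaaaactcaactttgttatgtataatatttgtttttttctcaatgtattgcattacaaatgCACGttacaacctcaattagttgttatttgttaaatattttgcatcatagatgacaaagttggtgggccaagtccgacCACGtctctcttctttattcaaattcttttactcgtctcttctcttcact
RBOHF: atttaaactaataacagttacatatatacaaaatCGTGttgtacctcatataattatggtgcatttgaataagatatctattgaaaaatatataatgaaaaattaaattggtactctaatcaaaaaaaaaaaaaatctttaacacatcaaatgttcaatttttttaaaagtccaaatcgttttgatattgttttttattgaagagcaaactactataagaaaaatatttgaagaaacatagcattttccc
RBOHG: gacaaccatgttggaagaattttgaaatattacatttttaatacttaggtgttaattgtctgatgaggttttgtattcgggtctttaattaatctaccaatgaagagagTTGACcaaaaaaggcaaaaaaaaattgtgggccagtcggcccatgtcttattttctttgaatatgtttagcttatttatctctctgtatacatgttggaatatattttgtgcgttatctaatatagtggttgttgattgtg

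These windows did not share one motif pattern. The RBOHC window held 2 copies of CACG and none of TTGAC, the RBOHF window 1 of CACG, and the RBOHG window 1 of TTGAC. Across the family 6 of 10 windows held CACG and 6 of 10 held TTGAC. Among 27443 windows of protein-coding genes, 45.6% held CACG and 44.9% held TTGAC. The CACGTG box, which contains CACG on both strands, was in none of the 10 windows and in 6.49% of all windows.

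The 10 genes are spread over chromosomes 1, 3, 4 and 5, and each had between 8 exons (RBOHD) and 15 exons (RBOHE) in the transcript nearest in length to the counted model. The most alike pair in coding sequence was RBOHH and RBOHJ, with 81.4% identical bases, followed by RBOHC and RBOHG with 76.9%. The longest run shared base for base is printed for both pairs, because reads that fit 2 places equally well were not counted.
RBOHH and RBOHJ: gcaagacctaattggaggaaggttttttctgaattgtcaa
RBOHC and RBOHG: accatcacatggcttagaaataagac

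These runs are 40 and 26 bases long and lie in the coding sequence. No window of 50 bases of any RBOH transcript occurred in another RBOH transcript. Windows shared with other genes came from neighbours that overlap on the opposite strand: 120 of 3013 windows of RBOHA in AT5G07380, 84 of 2958 of RBOHE in AT1G19240, and 10 of 2578 of RBOHB in RPT5B. The libraries were not stranded, so reads from such overlaps cannot be told apart. None of the 3 neighbours was called (log2 fold changes -0.03, 0.06 and -0.07), and AT5G07380 had 35 to 61 pairs per library. RBOHG overlaps CHLM by 37 bases on the opposite strand, and CHLM was not called either (-0.13).

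Levels in untreated seedlings were compared per length, as FPKM (pairs scaled to the length of the gene model and to the counted pairs of the library). RBOHD, the oxidase of the immune burst, was highest at 35.3 ± 2.39 FPKM (SD, n = 3), which was above 80.4% of tested genes. It was 2.5-fold above the next gene, RBOHG, at 14.1 ± 0.765 FPKM. RBOHB followed at 12.8 ± 0.566 FPKM, and the ranges of these 3 genes did not overlap. RBOHC and RBOHF both stood at 11.5 FPKM (SD 0.231 and 0.232) with overlapping ranges. RBOHI and RBOHE, at 6.28 ± 0.192 and 6.18 ± 0.0463 FPKM, also overlapped, and RBOHA was lowest of the tested genes at 3.64 ± 0.395 FPKM. In the plot of levels per length, every mean of a tested gene was lower in Dex than in no_Dex.

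**Figure D1:**
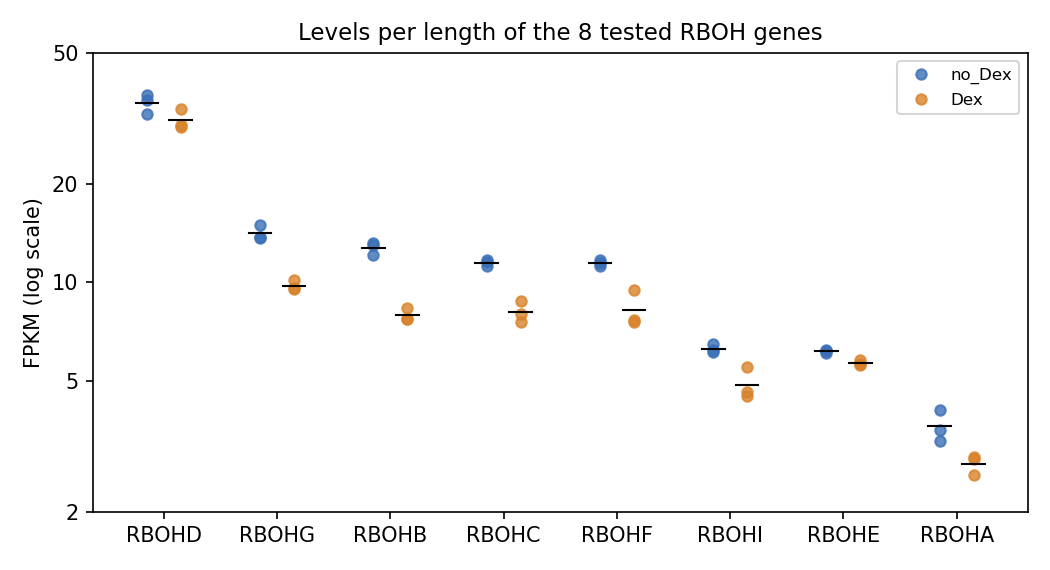
FPKM (log scale) of the 8 tested RBOH genes, ordered by their no_Dex mean. Points are libraries (3 per group) and bars are group means. RBOHD stands above the others in both groups, with a no_Dex mean of 35.3 FPKM.

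After 6 h of dexamethasone, 6 of the 8 tested RBOH genes fell, none rose and 2 did not pass (quasi-likelihood test of edgeR, adjusted p under 0.05 by Benjamini-Hochberg over all 21344 tested genes; every adjusted p given here for a list gene is of this kind unless another tool or a block is named). Of all tested genes, 8.4% were called lower and 5.99% higher. The genes that fell were RBOHB, RBOHG, RBOHC, RBOHF, RBOHA and RBOHI, by log2 fold changes of -0.69 to -0.37, or 38.2% to 22.8% less RNA. Fewer cells of a type and less RNA per cell cannot be told apart in whole seedlings. The median log2 fold change of the tested members was -0.44, beside 0.01 for all tested genes. In 7 of the 8 the Dex and no_Dex values did not overlap, with Dex lower, which was so for 18.3% of all tested genes (36.3% in either direction). Nothing is read from these counts, because the family was chosen on this contrast.

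**Figure D2:**
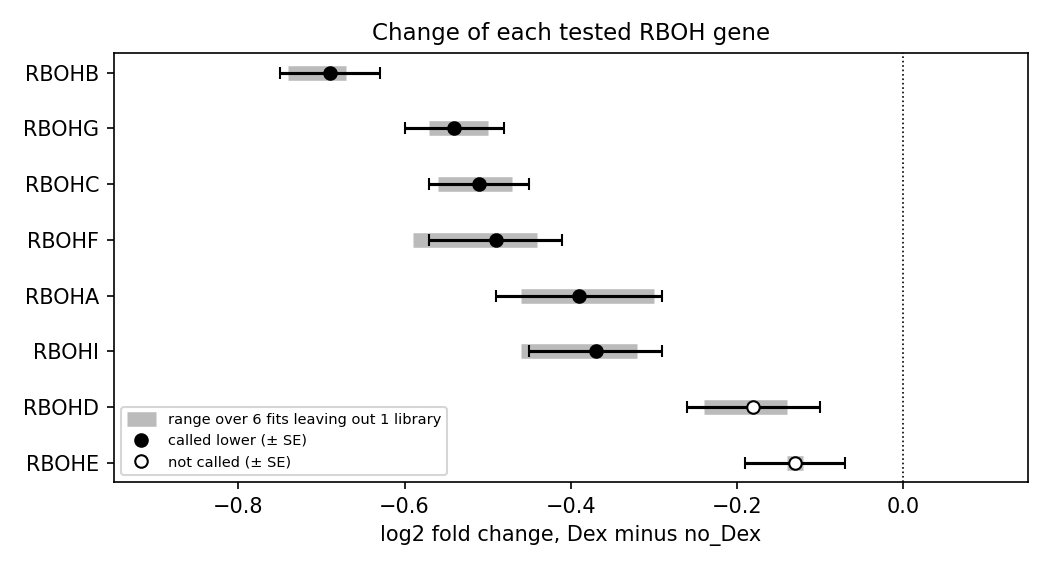
Log2 fold change (Dex minus no_Dex) of each tested RBOH gene with its standard error. Grey bars span the 6 fits that each leave out 1 library, filled points are called lower and open points are not called. RBOHB lies farthest from 0 at -0.69 and RBOHE nearest to 0 at -0.13.

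Among the members with a known role in defence and stomata, RBOHF changed and RBOHD was not called. RBOHD (AT5G47910, chromosome 5, 19397041 to 19402061, plus strand) makes the burst that follows recognition of microbes. It stood at 118.9, 115.4 and 104.3 CPM in no_Dex replicates 1 to 3, and at 95.5, 108.1 and 96.8 CPM in Dex replicates 1 to 3. The groups overlapped, since Dex replicate 2 was above no_Dex replicate 3. The log2 fold change was -0.18 (SE 0.08), and the limma-voom 95% interval ran from -0.36 to -0.01.

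RBOHF (AT1G64060, chromosome 1, 23769774 to 23776984, plus strand) acts with RBOHD in the closing of stomata by abscisic acid and supplies hydrogen peroxide for the lignin of the Casparian strip. Its values were 44.3, 45.1 and 46.1 CPM in no_Dex and 37.3, 30.3 and 29.9 CPM in Dex. All Dex libraries were lower than all no_Dex libraries, and Dex replicate 1 lay closest to the untreated ones. Its log2 fold change was -0.49 with an SE of 0.08 (3 libraries in each group), or -0.59 without Dex replicate 1. FPKM of RBOHD over RBOHF was 3.08 ± 0.268 in no_Dex and 3.85 ± 0.63 in Dex (SD, n = 3), and its ranges overlapped.

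RBOHC (AT5G51060, chromosome 5, 20757199 to 20762461, minus strand), also named RHD2, drives the tip growth of root hairs. It had 35.7, 36.7 and 37.1 CPM in no_Dex and 27.9, 25.5 and 24.0 CPM in Dex. The groups did not overlap, and the 3 no_Dex libraries differed little among themselves. RBOHC fell by 0.51 on the log2 scale (SE 0.06).

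RBOHG (AT4G25090, chromosome 4, 12878667 to 12883805, minus strand), the closest relative of RBOHC in coding sequence, changed by a like amount. Its CPM were 40.6, 37.2 and 36.9 in no_Dex and 27.5, 26.0 and 25.9 in Dex. Again every Dex library was below every no_Dex library, and the log2 fold change was -0.54 (SE 0.06). The neighbour FSD1, an iron superoxide dismutase that removes superoxide, lies 494 bases away on the same strand. FSD1 was scarce and variable, at 1.53, 2.03 and 3.07 CPM in no_Dex and 0.275, 2.06 and 1.49 CPM in Dex, and was not called (edgeR adjusted p = 0.345).

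RBOHB (AT1G09090, chromosome 1, 2932739 to 2936586, plus strand), known from the after-ripening of seeds, had the largest fold change of the 8. It went from 34.1, 31.8 and 34.6 CPM in no_Dex to 20.4, 20.4 and 21.9 CPM in Dex. The gap between the groups was wider than the range within either. RBOHB fell by 0.69 on the log2 scale (SE 0.06), to 0.618 of its untreated level.

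RBOHA and RBOHI fell in the fit of all 6 libraries, but their calls did not hold when single libraries were left out. RBOHI (AT4G11230, chromosome 4, 6840473 to 6845627, minus strand) had 19.5, 20.3 and 19.2 CPM in no_Dex and 17.3, 14.1 and 14.5 CPM in Dex, a log2 fold change of -0.37 (SE 0.08). RBOHA (AT5G07390, chromosome 5, 2335895 to 2339913, minus strand) had 12.5, 10.9 and 10.1 CPM in no_Dex and 8.85, 9.02 and 7.93 CPM in Dex, a log2 fold change of -0.39 (SE 0.10). In neither gene did the groups overlap. Both calls were lost when any library other than Dex replicate 1 was left out, with fold changes of -0.46 to -0.32 for RBOHI and -0.46 to -0.30 for RBOHA over the 6 such fits. The gene beside RBOHA, AT5G07400, 709 bases away on the other strand, had the same log2 fold change of -0.39 (SE 0.09; adjusted p = 0.0222, between 0.0157 and 0.0889 over the fits that leave out 1 library).

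RBOHE (AT1G19230, chromosome 1, 6643942 to 6649375, plus strand), known from cell death in the anther tapetum, was not called. It had 17.6, 17.8 and 17.9 CPM in no_Dex and 16.7, 16.1 and 16.2 CPM in Dex. These values did not overlap, but the difference was small, with a log2 fold change of -0.13 (SE 0.06) and a limma-voom 95% interval of -0.27 to 0.

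RBOHH and RBOHJ keep the walls of growing pollen tubes intact. RBOHH had 1 pair in each no_Dex library and 2, 0 and 0 pairs in Dex replicates 1 to 3. RBOHJ had 0 pairs in all 6 libraries. RBOHH, with at most 2 pairs in a library, was too scarce to be tested. For RBOHJ, a count of 0 allows up to 3 pairs, or 0.102 to 0.115 CPM, for counting error only, so it was not detectable above this limit. Of 8 pollen and pollen tube markers, 3 were likewise at 0 in every library, and the list summed to between 5.43 and 6.92 CPM over the 6 libraries. Of the 3 that were tested, those with the smallest p were the receptor kinases ANX1 (log2 fold change 0.21, edgeR adjusted p = 0.259) and BUPS1 (-0.52, edgeR adjusted p = 0.311).

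**Figure D3:**
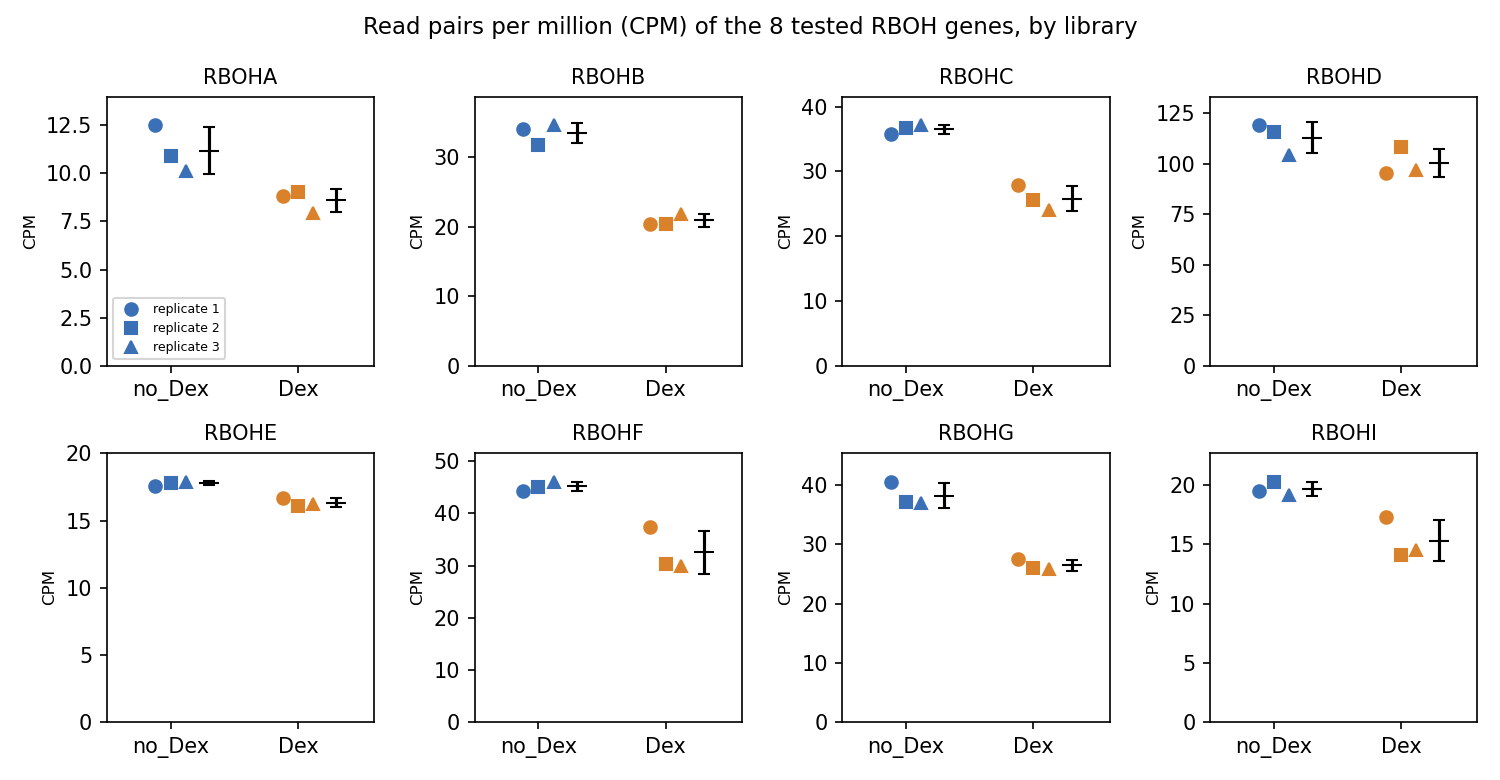
CPM of the 8 tested RBOH genes in each library, on axes that start at 0. Symbols mark the replicate number, and the black bar beside each group is its mean ± SD (n = 3). Dex values lie below no_Dex values in all panels except RBOHD, where Dex replicate 2 (108.1 CPM) is above no_Dex replicate 3 (104.3 CPM).

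Summed over the family, FPKM lay between 98.4 and 104.1 in no_Dex and between 76.1 and 80.3 in Dex. Since RBOHD changed less than most members, its share of this sum was 33.1% to 35.7% in no_Dex and 37.2% to 42.3% in Dex. Without RBOHD the sum was 65.1 to 66.9 FPKM in no_Dex and 45.9 to 50.4 FPKM in Dex. RBOHB went the other way in its share, from 12.6% ± 0.72 to 10.1% ± 0.715 (SD, n = 3). When each Dex library was set against the no_Dex library of the same number, all 24 log2 ratios of the 8 tested genes were below 0. For the 7 genes whose groups did not overlap this holds under any pairing, so nothing further is read from it. Dex replicate 1 was the highest of the Dex libraries for 5 of the 8 and the lowest for 1, RBOHD.

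RBOHB, RBOHC, RBOHF and RBOHG were called lower in each of the 6 fits that leave out 1 library. Without Dex replicate 1 all 6 members were called lower, and without any other library 4 were.

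Of 20 kinases, calcium sensors and other regulators of RBOH proteins, ABI1 rose, CPK2 fell and 18 did not pass, with a median log2 fold change of -0.07. Over all tested genes 14.4% were called in either direction. ABI1, a phosphatase that restrains abscisic acid signalling, rose by 0.24 (SE 0.06), and the calcium-dependent kinase CPK2 fell by 0.25 (SE 0.06). Their edgeR adjusted p of 0.027 and 0.0276 reached 0.118 and 0.103 when 1 library was left out, so neither call held throughout. With the replicate number as a block, 2 of these regulators were called lower.

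Of 18 ROP GTPases and their regulators, ROP1 rose, ROPGEF3 and ROPGEF4 fell and 15 did not pass (median -0.11). ROPGEF3, an exchange factor that marks the site of a future root hair, stood at 5.97, 6.35 and 6.13 CPM in no_Dex and 3.24, 3.71 and 3.72 CPM in Dex. The groups were well apart, and it fell by 0.80 on the log2 scale (SE 0.11; adjusted p = 0.00323, at most 0.0228 with 1 library left out). ROPGEF4 fell by 0.44 and ROP1 rose by 0.59, with adjusted p of up to 0.0668 and 0.0873 when 1 library was left out.

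Of 14 receptors that signal to RBOHD, RLP23 rose, FLS2, PEPR1 and PEPR2 fell and 10 did not pass (median -0.01). FLS2, the receptor of bacterial flagellin, went from 67.6, 64.3 and 66.7 CPM to 55.2, 51.2 and 52.8 CPM, a log2 fold change of -0.33 (SE 0.05; adjusted p = 0.00521). PEPR1, a receptor of the plant's own Pep peptides, fell by 0.43 (SE 0.07; adjusted p = 0.00598). Its relative PEPR2 fell by 0.50, with adjusted p of up to 0.07 when 1 library was left out. RLP23, a receptor-like protein that recognises a microbial peptide, moved the other way and rose by 4.40 on the log2 scale (SE 0.17; adjusted p = 2.67e-05).

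Of 17 tested enzymes that remove superoxide and hydrogen peroxide, edgeR called none. Those with the smallest p were the peroxidase APX3 (0.19, SE 0.06; adjusted p = 0.0579) and the catalase CAT2 (-0.24, SE 0.08; adjusted p = 0.0702). The median of these enzymes was 0.08, and 8 of them had an unadjusted edgeR p under 0.05, with changes in both directions. The share of all tested genes under that limit was not counted, so nothing is read from this number. DESeq2 called 1 of them lower, CAT2. With the replicate number as a block 1 was called higher and 1 lower, and without Dex replicate 1 there were 4 called higher. Of 16 genes known to respond to reactive oxygen, ZAT10 rose by 1.06 (SE 0.28; adjusted p = 0.0408) and RRTF1 fell by 2.11 (SE 0.48; adjusted p = 0.0225). RRTF1 was scarce, at 0.644, 1.79 and 1.62 CPM in no_Dex and 0.482, 0.229 and 0.213 CPM in Dex. The other 14 did not pass. The calls of ZAT10 and RRTF1 were lost in some fits that leave out 1 library (edgeR adjusted p of up to 0.152 and 0.0913). With the replicate number as a block, 2 of these genes were called higher and 2 lower.

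**Figure D4:**
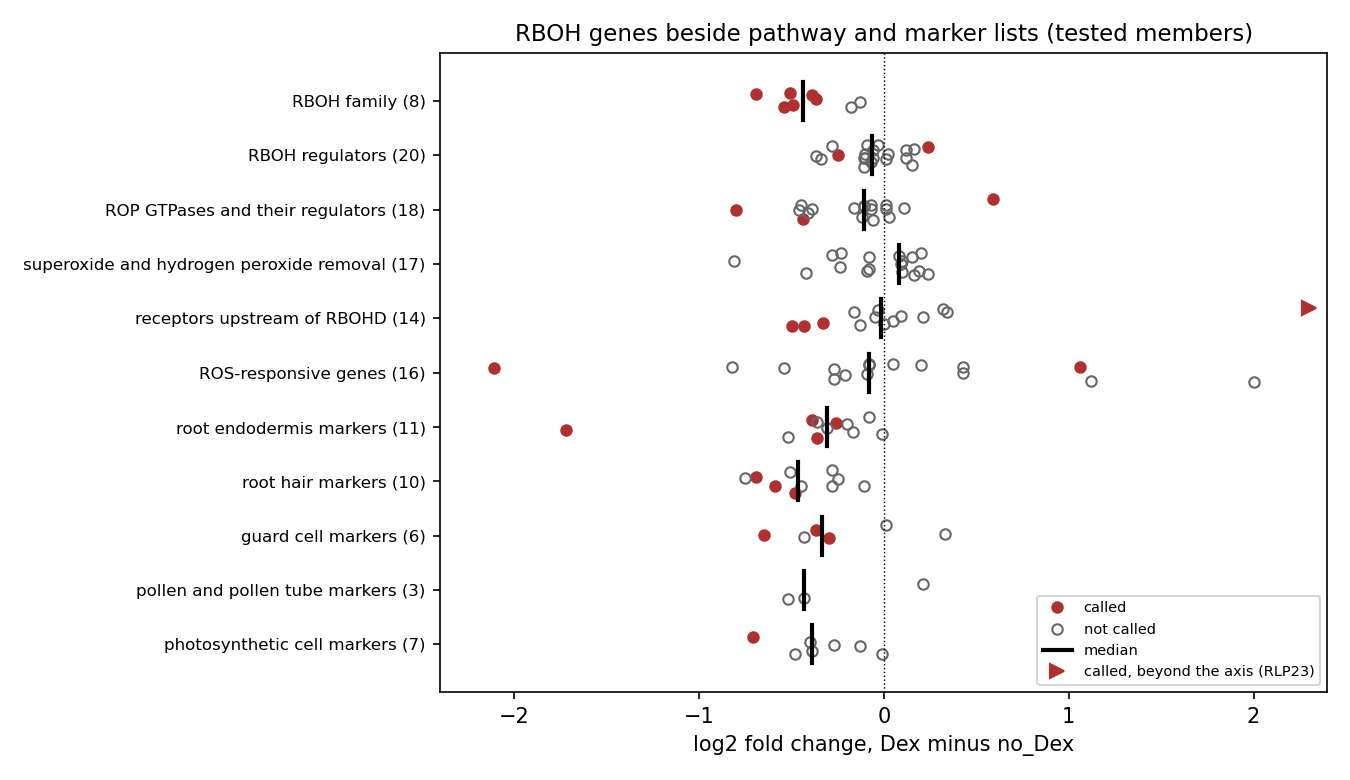
Log2 fold change (Dex minus no_Dex) of every tested gene of the RBOH family and of 10 pathway and marker lists, with the number tested in brackets. Filled points are called, open points are not, and the black bar is the median of the list, which is -0.44 for the RBOH family and -0.46 for the root hair markers. RLP23, at 4.40, lies beyond the axis.

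Markers of cell types in which RBOH genes act are given beside the members. Of 10 root hair markers 3 were called lower, none higher and 7 did not pass, beside 8.4% of all tested genes called lower. With the replicate number as a block 4 were called lower. All 10 fold changes were below 0, with a median of -0.46. These markers summed to 290.4 to 332.8 CPM in no_Dex and 174.2 to 278 CPM in Dex. RSL4 and RSL2, which promote the growth of root hairs in which RBOHC acts, fell by 0.59 and 0.69 on the log2 scale (SE 0.09 and 0.11; adjusted p = 0.00438 and 0.00566). The third, EXPA7, fell by 0.48, with adjusted p of up to 0.124 when 1 library was left out.

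Of 11 markers of the root endodermis, where RBOHF acts on the Casparian strip, 4 were called lower and 7 did not pass. All 11 fold changes were below 0 (median -0.31). These markers summed to 320.7 to 346.4 CPM in no_Dex and 269.2 to 309.8 CPM in Dex. CASP5 fell by 1.72 (SE 0.25; adjusted p = 0.00358), from 1.69 ± 0.297 to 0.515 ± 0.116 CPM. CASP2 and PER64, the peroxidase of the strip, fell by 0.39 and 0.26. When 1 library was left out their adjusted p reached 0.167 and 0.154. With the replicate number as a block, 5 endodermis markers were called lower, and PER64 was not among them (adjusted p = 0.0546).

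Guard cell markers, 6 in all, summed to 53.7 to 56.1 CPM in no_Dex and 42.0 to 46.3 CPM in Dex. KAT1, MYB60 and FAMA fell while 3 did not pass (median -0.33). The list was not uniform, since only 4 of the 6 fold changes were below 0. Those that did not pass ran from -0.43 to 0.33. KAT1, a potassium channel of guard cells, fell by 0.65 (SE 0.09; adjusted p = 0.00316). MYB60 and FAMA fell by 0.37 and 0.30, and their adjusted p reached 0.0966 and 0.11 when 1 library was left out. FAMA was not called by DESeq2 (adjusted p = 0.0699). Of 7 markers of photosynthetic cells, LHCB1.3 alone was called, lower by 0.71 (edgeR adjusted p = 0.0199, up to 0.089 with 1 library left out). All 7 fold changes were below 0, with a median of -0.39. With the replicate number as a block, 2 of these markers were called lower. In the root hair, endodermis, guard cell and photosynthetic lists no marker had 0 pairs throughout. The part that the amount of these cell types has in the RBOH values was not tested.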

How the data were processed

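PolyA RNA of whole seedlings was made into libraries that do not keep strand and sequenced in pairs, per the labels' protocols. Bowtie2 and the TAIR10 build are named in the submitters' processing notes, without a version of the aligner. They deposited raw counts of read pairs and of single reads for each gene model, with the model's length. Pairs whose best and second-best alignments scored alike were removed, per the file headers, which took 1.53% to 1.66% of the pairs parsed.

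Here the pair counts were tested with edgeR 4.0.16 in R 4.3.3. Genes were kept by filterByExpr (minimum count 10, minimum total 15), scaled by TMM and fitted by quasi-likelihood without pairing, and p-values were adjusted by Benjamini and Hochberg over 21344 genes, with 0.05 as the threshold. CPM and FPKM used the library's counted pairs and the deposited model length. Whether groups overlap was judged on TMM-scaled CPM. The test was also run on counts simulated with dispersions taken from these data, with 50 genes changed at each fold. It called 10% of the genes changed 1.25-fold, 48% of those changed 1.5-fold and 94% of those changed 2-fold, with 13 false calls. A small change can thus go uncalled. Fewer genes were changed there than were called in the data, so these rates are not those of the main fit. Alternatives were DESeq2 1.42.0, limma-voom 3.58.1, other filters, single reads, a replicate block and leaving out each library.

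Deviations from the group mean had correlations across genes of 0.213, 0.162 and 0.142 between same-numbered libraries. Between libraries of unlike number they were -0.164 to 0.0375. The labels do not say what a number marks, so the main fit was left unpaired. The replicate number was used as a block only in an alternative fit. That block called 1604 genes higher and 2146 lower, against 1279 and 1792 in the main fit.

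The members and gene lists were chosen with earlier results of these data known. Named genes are all members, CUC2, up to 4 called genes of each list with the smallest p (at most 2 where none was called), and neighbours of a member that overlap it or were called. FSD1, beside RBOHG, falls outside this rule and was chosen after its values were seen. A called gene of the endodermis list and a promoter sequence are not reported here. The deposited tables hold no coordinates. Those given here are RefSeq's on TAIR10.1, matched by AGI code, and the counted model had the same length as the RefSeq transcript for RBOHA and RBOHB, and another length for the other 8.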

Additional observations from a re-analysis of the deposited data

How the results depend on the processing

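The 6 calls among the RBOH genes stayed at 6 under DESeq2 size factors, the DESeq2 Wald test, limma-voom, both other filters, single reads and the replicate block, and ranged from 4 to 6 when 1 library was left out. Counts over all genes ranged from 519 to 2339 higher and from 785 to 2726 lower in those leave-one-out fits. The highest counts, 2339 and 2726, came without Dex replicate 1, and the lowest, 519 and 785, without no_Dex replicate 2. The lists ranged as follows in them: regulators 0 to 1 higher and 0 to 5 lower, ROP genes 0 to 2 higher and 1 to 3 lower, removal enzymes 0 to 4 higher and 0 to 1 lower, receptors 2 to 4 lower, and genes responding to reactive oxygen 0 to 2 in either direction. Markers called lower ranged from 1 to 4 for endodermis, 2 to 4 for root hairs, 1 to 3 for guard cells and 0 to 3 for photosynthetic cells.

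With the replicate block, removal enzymes had 1 called higher and 1 lower, genes responding to reactive oxygen 2 and 2, regulators 2 lower, photosynthetic markers 2 lower, root hair markers 4 lower and endodermis markers 5 lower. Among the named genes the block also called APX3 (adjusted p = 0.0472) and lost PER64 (0.0546), and it changed no other call of a named gene. DESeq2 called 1 removal enzyme lower, 0 genes responding to reactive oxygen higher and 2 lower, 5 root hair markers, 5 endodermis markers, 2 photosynthetic markers and 2 guard cell markers lower. Among the named genes DESeq2 called CAT2 (adjusted p = 0.0393) and lost ZAT10 (0.0514) and FAMA (0.0699). With limma-voom 4 root hair markers were called lower. Requiring at least 1 CPM in all libraries left 0 receptors called higher, 0 genes responding to reactive oxygen called lower and 3 endodermis markers called lower, since RLP23, RRTF1 and CASP5 fell under that filter and had no test. Using no filter gave 2 photosynthetic and 3 endodermis markers lower, with PER64 lost (adjusted p = 0.0528). The causes of the other changes were not tested. Over 476 single-gene results from 37 genes, 400 stayed on their side of the threshold, 73 lost the call, 3 gained it and 0 changed direction. Tested members had 224 to 3505 pairs per library, fewest for RBOHA.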
